A study of Schizosaccharomyces pombe with 5 samples.

Results

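The genes described here are the fission yeast glucan synthases and the enzymes that remodel their products. They are bgs1 (SPBC19G7.05c), bgs2 (SPAC24C9.07c), bgs3 (SPAC19B12.03), bgs4 (SPCC1840.02c), ags1 (SPCC1281.01), gas1 (SPAC19B12.02c), gas2 (SPBC29A10.08), gas4 (SPBC342.03), gas5 (SPAC11E3.13c) and psu1 (SPAC1002.13c). They are 10 of the 5134 genes tested, picked out by gene name with no threshold on a measured value, at a time when results of these data were already known. All 10 were found in the deposited tables and tested in each comparison, and the lowest mean normalized count among them was 1102 (bgs2), so no member was lost to a filter on low counts. RNA came from whole cells of the wild-type Schizosaccharomyces pombe strain 972 h-, cultured with shaking at 30 °C. Cells stood in 3 mM diamide (DIA) for 30 min (DIA30) or 60 min (DIA60), or in 75 mM hydroxyurea (HU) for 60 min (HU60) or 150 min (HU150), and untreated cells served as the control. DIA oxidizes thiols and HU inhibits ribonucleotide reductase. All groups share the 1 strain, and all are labelled wild type. The 1 untreated condition is the control of every treatment, and no untreated condition is matched to each duration. Time in culture and time in the drug therefore cannot be told apart.

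The wall of a fission yeast cell is built mainly of beta-glucan, alpha-glucan and galactomannan. The glucan chains are made by synthases in the plasma membrane, at the growing tips and, during division, at the septum. Outside the membrane, transferases of the Gas family cut a glucan chain and join the piece to another chain, which lengthens it. Growing cells use Bgs1, which makes the linear beta-glucan of the primary septum, Bgs4, which makes branched beta-glucan of the wall and the secondary septum, Bgs3, a further wall synthase, and Ags1, the alpha-glucan synthase. Bgs2 and Gas4 are known for their work in the spore wall, and Psu1 is a wall protein of the SUN family, annotated as a beta-glucosidase.

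The values are those of the authors' deposited tables, 1 per treatment. Each holds for every gene a log2 fold change against the control, its standard error (SE) and a Benjamini-Hochberg adjusted p of the Wald test. A gene is said to have risen or fallen where its adjusted p was below 0.05, and changes of at least 2-fold are counted besides. The libraries numbered 15, with 3 per condition and 24116729 to 24274040 read pairs each. By the study's description, the 3 libraries of a condition are independent repetitions. Values per library were not analysed here, and the normalized count of each condition was rebuilt from a gene's mean over all libraries and its fold changes. Where genes are compared with each other, this level is divided by coding length (per kb). Coding length leaves out the untranslated ends of a transcript, which can also yield reads. An order between genes per kb therefore holds for this measure only. The spread between libraries that the SE implies was a coefficient of variation of 2.84% (bgs4) to 5.52% (bgs2), beside a median of 5.18% over the 4867 genes that averaged 50 or more normalized counts. It rests on the standard errors of the authors' fit and was not measured between libraries.

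In untreated cells, gas1, gas2 and psu1 stood far above the synthases. gas1 had 19483 normalized counts per kb and psu1 had 19405, which did not differ beyond the spread between libraries. gas2 followed at 15318 per kb and gas5 at 3272. Per kb, these 4 levels exceeded that of every synthase, and the median of 5101 genes with a coding length was 1044 per kb. Before division by length, gas5 had 5016 normalized counts, fewer than bgs4 (15272), ags1 (11282) and bgs3 (5409). Among the synthases bgs4 led with 2603 normalized counts per kb, followed by ags1 with 1560, bgs3 with 987, bgs1 with 768 and bgs2 with 222. gas4, the spore wall transferase, had 1663 per kb and lay between bgs4 and ags1. Apart from gas1 and psu1, each neighbouring pair in this order differed beyond the error that this spread gives for means of 3 libraries. That error takes coding length as exact, so it does not test whether the RNA of 2 genes differs in amount. For gas4 and ags1 the margin was narrow, at a ratio of 1.07 (z = 2.03). gas1 lay at the 95.4th percentile of all genes per kb and bgs2 at the 10.5th.

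**Figure D1:**
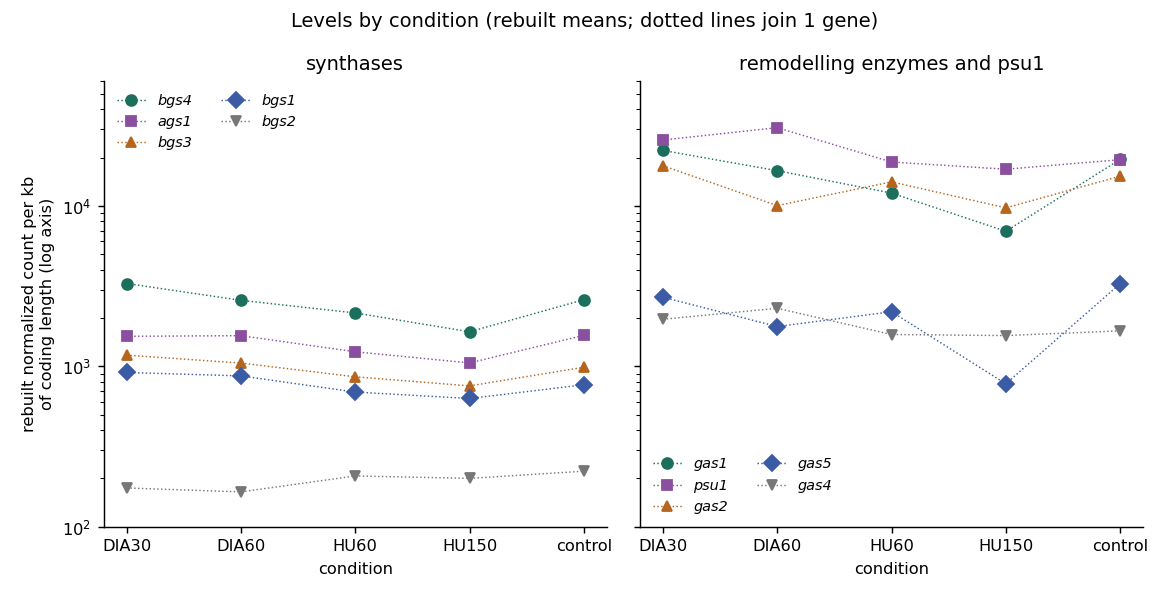
Rebuilt normalized counts per kb of coding length (log axis) of the 5 synthases (left) and of the gas genes and psu1 (right) in DIA30, DIA60, HU60, HU150 and control cells. Points are means of a condition rebuilt from the deposited mean and fold changes, without an error of their own, and dotted lines only join the points of 1 gene. The steepest drop is that of gas5, at 778 per kb in HU150 against 3272 per kb in the control.

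At 30 min of DIA, most of these genes were raised, by small amounts. 7 of the 10 rose and 2 fell, where 29.1% of all genes tested rose and 28.0% fell. None was at least 2-fold higher or lower, as 3.04% and 1.69% of all genes were. The median log2 fold change of the 10 was 0.23, against 0.01 over all genes. psu1 had the highest value (0.41 ± 0.05, SE), followed by bgs4 (0.33 ± 0.03), bgs1 (0.25 ± 0.04), bgs3 (0.25 ± 0.04), gas4 (0.24 ± 0.05), gas2 (0.22 ± 0.04) and gas1 (0.19 ± 0.05). Neighbours within these 7 did not differ beyond their errors, and pairs farther apart in this order were not tested. The 2 that fell were bgs2 (-0.35 ± 0.07), the synthase of the spore wall, and gas5 (-0.28 ± 0.06), a transferase of growing cells. ags1 was at -0.02 ± 0.04 (adjusted p = 0.691). In bulk RNA such as this, fewer cells that use a gene and less of its RNA per cell cannot be told apart.

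At 60 min of DIA, rises and falls among these genes were equal in number. 4 rose and 4 fell, where 36.4% of all genes rose and 35.3% fell. Again none passed 2-fold, which 4.19% of all genes did upward and 3.95% downward. The median of the 10 was -0.01 (0.01 over all genes). psu1 (0.66 ± 0.05) and gas4 (0.47 ± 0.05) rose most, by 58.4% and 38.3%, and bgs1 (0.18 ± 0.04) and bgs3 (0.09 ± 0.04, adjusted p = 0.0472) rose less. gas5 fell most (-0.89 ± 0.06), to a level 45.9% below the control, and gas2 (-0.61 ± 0.05), bgs2 (-0.43 ± 0.07) and gas1 (-0.23 ± 0.05) fell too. bgs4 (-0.01 ± 0.03, adjusted p = 0.745) and ags1 (-0.01 ± 0.04, adjusted p = 0.891) did not pass the test. The 95% interval ran from -0.08 to 0.05 for bgs4 and from -0.08 to 0.07 for ags1. The call of bgs3 was lost when the fold changes were centred on the median gene (adjusted p = 0.0568).

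At 60 min of HU, the log2 fold change of every member was negative. 7 of the 10 fell and 0 rose, where 22.2% of all genes fell and 24.6% rose. None was at least 2-fold lower or higher, as 0.195% and 2.08% of all genes were. The median of the 10 was -0.17 (0.00 over all genes). gas1 fell most (-0.70 ± 0.05, 38.3% below the control) and gas5 next (-0.58 ± 0.06), and these 2 did not differ beyond their errors. ags1 (-0.34 ± 0.04), bgs4 (-0.27 ± 0.03), bgs3 (-0.20 ± 0.04), bgs1 (-0.15 ± 0.05) and gas2 (-0.12 ± 0.05) also fell. The 3 that did not pass were the spore wall genes bgs2 (-0.10 ± 0.07, adjusted p = 0.216) and gas4 (-0.07 ± 0.05, adjusted p = 0.231), and psu1 (-0.05 ± 0.05, adjusted p = 0.448).

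At 150 min of HU, 9 of the 10 genes fell and 0 rose, where 31.7% of all genes fell and 33.1% rose. 2 members, gas5 and gas1, were at least 2-fold lower, as 1.69% of all genes were, and 0 were at least 2-fold higher (4.09% of all genes). All 10 values were negative, with a median of -0.48 (0.01 over all genes). gas5 stood lowest at -2.07 ± 0.07, and gas1 at -1.49 ± 0.05, apart from each other and from the rest. bgs4 (-0.66 ± 0.03), gas2 (-0.66 ± 0.05) and ags1 (-0.57 ± 0.04) formed a middle group whose neighbours did not differ beyond their errors. bgs3 (-0.39 ± 0.04), bgs1 (-0.28 ± 0.04), psu1 (-0.20 ± 0.05) and bgs2 (-0.15 ± 0.06, adjusted p = 0.0346) fell less. gas4 did not pass the test (-0.10 ± 0.05, adjusted p = 0.0829).

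**Figure D2:**
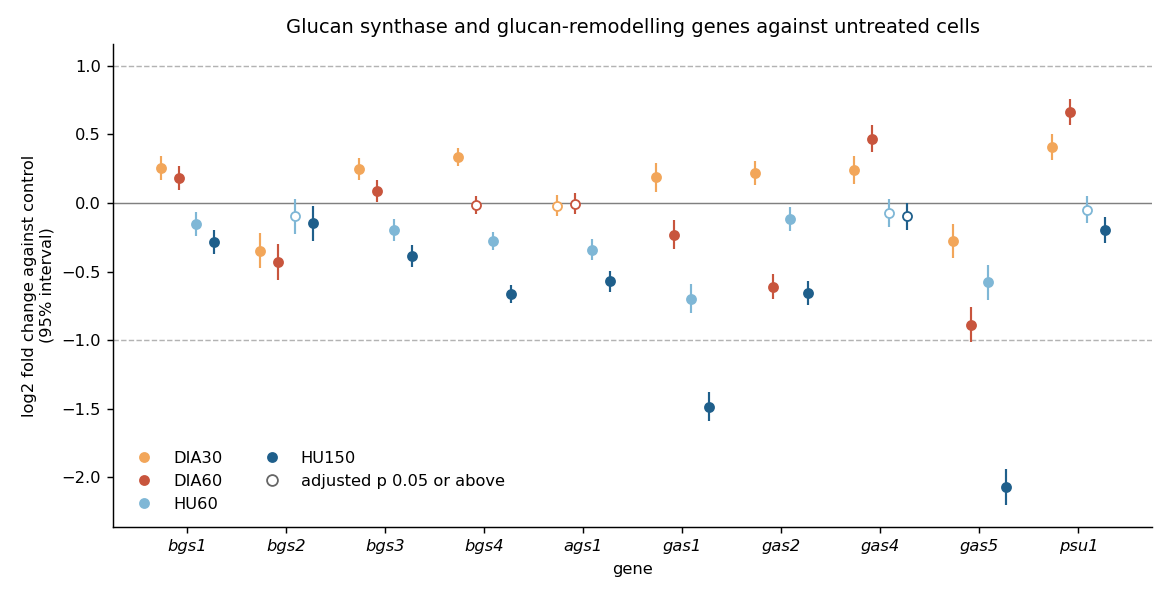
Log2 fold change against the control of each of the 10 genes under the 4 treatments, with 95% intervals from the deposited standard errors. Open circles have an adjusted p of 0.05 or above and dashed lines mark 2-fold. All HU values lie below 0, the DIA values lie on both sides, and only gas1 (-1.49) and gas5 (-2.07) in HU150 pass the lower line.

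Among the transferases of growing cells, gas5 had the lowest fold change in DIA30, DIA60 and HU150, while in HU60 gas1 was lower. Its rebuilt level was 4136 normalized counts in DIA30 and 2713 in DIA60, and 3357 in HU60 and 1193 in HU150, against 5016 in the control. It was the only member that fell in all 4 comparisons. The HU150 level was 76.2% below the control, a 4.2-fold decrease (adjusted p = 1.32e-209). With DIA the fall was 17.5% at 30 min (adjusted p = 4.80e-05) and 45.9% at 60 min (adjusted p = 1.51e-41).

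gas1 had one of the highest levels among these genes. It was at 36106 normalized counts in DIA30 and 27009 in DIA60, and 19573 in HU60 and 11316 in HU150, against 31738 in the control. DIA30 was the only condition above the control. In HU150 the level was 64.3% below the control, a 2.8-fold decrease (adjusted p = 3.76e-164). With DIA it rose by 13.8% at 30 min (adjusted p = 0.00138) and fell by 14.9% at 60 min (adjusted p = 3.29e-05).

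gas2 had 24560 normalized counts in DIA30 and 13856 in DIA60, and 19484 in HU60 and 13420 in HU150, against 21138 in the control. As with gas1, DIA30 stood above the control and DIA60 below it. gas2 fell by 34.5% in DIA60 (adjusted p = 2.50e-40) and by 36.5% in HU150 (adjusted p = 1.68e-46). gas4 was at 2694 normalized counts in DIA30 and 3154 in DIA60, and 2165 in HU60 and 2132 in HU150, against 2280 in the control. It was the only gas gene above the control at both DIA times (adjusted p = 8.09e-06 and 5.62e-20).

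psu1 had 32278 normalized counts in DIA30 and 38537 in DIA60, and 23533 in HU60 and 21232 in HU150, against 24333 in the control. Both DIA levels exceeded the control and both HU levels lay below it. Its rise of 58.4% in DIA60 (adjusted p = 6.47e-40) was the largest of any member in any comparison, and in HU150 it fell by 12.7% (adjusted p = 0.000171). Per kb, psu1 had the highest level of the 10 in each of the 4 treated conditions, from 16931 per kb in HU150 to 30732 per kb in DIA60. The next gene per kb was gas1 in DIA30 (22165) and DIA60 (16580), and gas2 in HU60 (14119) and HU150 (9725). Before division by length, gas1 stood above psu1 in DIA30, with 36106 normalized counts. The order between genes in treated conditions was not tested.

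Among the synthases, the value farthest from the control was that of bgs4 in HU150. bgs4, the most abundant of them per kb, had 19262 normalized counts in DIA30 and 15138 in DIA60, and 12625 in HU60 and 9638 in HU150, against 15272 in the control. DIA30 stood above the control (26.1% higher, adjusted p = 1.18e-22), and HU150 was 36.9% below it (adjusted p = 5.31e-85). ags1 had 11129 normalized counts in DIA30 and 11232 in DIA60, 8913 in HU60 and 7595 in HU150, against 11282 in the control. It was the only member that passed the test in neither DIA comparison, while it fell by 21.0% in HU60 (adjusted p = 1.33e-16) and by 32.7% in HU150 (adjusted p = 4.10e-46).

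bgs3 had 6436 normalized counts in DIA30 and 5744 in DIA60, and 4715 in HU60 and 4141 in HU150, against 5409 in the control. bgs1 had 4752 normalized counts in DIA30 and 4525 in DIA60, and 3587 in HU60 and 3272 in HU150, against 3985 in the control. Both genes thus lay above the control with DIA and below it with HU, and each passed the test in all 4 comparisons. The fall in HU150 was 23.4% for bgs3 (adjusted p = 7.14e-20) and 17.9% for bgs1 (adjusted p = 1.09e-09). bgs2 had 992 normalized counts in DIA30 and 938 in DIA60, and 1179 in HU60 and 1139 in HU150, against 1263 in the control. It differed from the other synthases in that its DIA levels were its lowest, at 21.4% (adjusted p = 7.60e-07) and 25.7% (adjusted p = 3.23e-10) below the control.

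The levels were also summed over the beta-glucan synthases and over the Gas transferases. The 4 bgs genes together stood at 121% of the control per kb in DIA30 and 102% in DIA60, and 85.4% in HU60 and 70.5% in HU150. The 4 gas genes stood at 112% in DIA30 and 77.2% in DIA60, and 75.3% in HU60 and 47.8% in HU150. These sums carry no error of their own, since they were rebuilt from means. bgs4 made up most of the bgs sum throughout, with 59.2% in DIA30 and 55.3% in DIA60, and 55.0% in HU60 and 50.9% in HU150, against 56.8% in the control. Per kb, gas1 was the leading gas gene with DIA and in the control, and gas2 with HU. In HU60 that lead rests on the division by length, since gas1 had 19573 normalized counts and gas2 had 19484. The order of the 2 genes in treated cells was not tested. gas1 held 49.7% of the sum in DIA30 and 54.0% in DIA60, and 40.2% in HU60 and 36.6% in HU150, against 49.0% in the control. gas2 held 39.9% in DIA30 and 32.7% in DIA60, and 47.2% in HU60 and 51.2% in HU150, against 38.5% in the control.

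**Figure D3:**
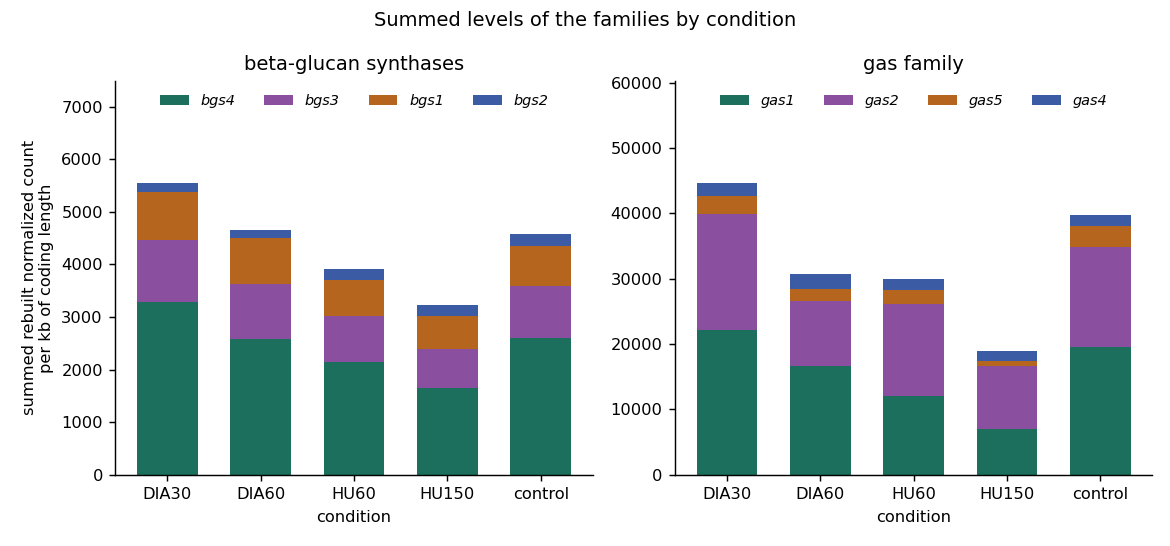
Summed rebuilt normalized counts per kb of the 4 beta-glucan synthases (left) and the 4 gas genes (right) in DIA30, DIA60, HU60, HU150 and control cells, stacked by gene and without error bars. The gas sum of HU150 is 47.8% of that of the control and the bgs sum 70.5%.

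To compare 2 treatments, one log2 fold change was subtracted from the other, and the result was divided by its SE in a two-sided z-test, with Benjamini-Hochberg adjustment over the 5134 genes. Both fold changes share the control libraries, which the SE of the difference ignores, so it is too large. Between the DIA times, 2 members were higher in DIA60 than in DIA30 and 5 were lower, where 17.1% of all genes were higher and 21.0% lower. The higher ones were psu1 (difference 0.26 ± 0.07, adjusted p = 0.00137) and gas4 (0.23 ± 0.07, adjusted p = 0.00583). The lower ones were gas2 (-0.83 ± 0.06, adjusted p = 8.13e-36), gas5 (-0.61 ± 0.09, adjusted p = 6.67e-10), gas1 (-0.42 ± 0.08, adjusted p = 5.75e-07), bgs4 (-0.35 ± 0.05, adjusted p = 6.83e-12) and bgs3 (-0.16 ± 0.06, adjusted p = 0.0155). Of the gas genes, gas1, gas2 and gas5 thus went one way and gas4 the other. bgs1, bgs2 and ags1 did not pass, with differences of -0.07, -0.08 and 0.01.

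Between the HU times, 6 members were lower in HU150 than in HU60 and 0 were higher, where 14.6% of all genes were lower and 11.1% higher. All 10 differences were negative, with a median of -0.21 (-0.01 over all genes). gas5 had the largest, -1.49 ± 0.09 (adjusted p = 7.71e-56), which is a 2.81-fold lower level in HU150 than in HU60. gas1 (-0.79 ± 0.08), gas2 (-0.54 ± 0.06), bgs4 (-0.39 ± 0.05), ags1 (-0.23 ± 0.06) and bgs3 (-0.19 ± 0.06, adjusted p = 0.00755) were the others. The 4 that did not pass were psu1 (-0.15, 95% interval -0.29 to -0.01), bgs1 (-0.13, -0.26 to -0.01), bgs2 (-0.05, -0.23 to 0.13) and gas4 (-0.02, -0.16 to 0.12).

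The drugs also differed from each other. HU150 and DIA60 are the times at which, by the study's methods, cells begin to show the altered nuclear envelope that was being investigated, and HU60 and DIA30 come before it. The doses and durations of the drugs differ in both pairs. In HU150 against DIA60, 8 members were lower and 1 was higher, where 34.3% of all genes were lower and 32.4% higher. The differences of gas1 (-1.26 ± 0.08, adjusted p = 4.92e-59) and gas5 (-1.19 ± 0.09, adjusted p = 6.90e-36) were the largest, followed by psu1 (-0.86 ± 0.07), bgs4 (-0.65 ± 0.05), gas4 (-0.56 ± 0.07), ags1 (-0.56 ± 0.06), bgs3 (-0.47 ± 0.06) and bgs1 (-0.47 ± 0.06). bgs2 was higher in HU150 than in DIA60 (0.28 ± 0.09, adjusted p = 0.00459). For gas2 the difference was -0.05 with a 95% interval of -0.17 to 0.08 (adjusted p = 0.531).

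In HU60 against DIA30, 9 members were lower and 1 was higher, where 27.8% of all genes were lower and 24.5% higher. The lower ones ranged from gas1 (-0.88 ± 0.08) to gas5 (-0.30 ± 0.09, adjusted p = 0.00256), and bgs2 was the higher one (0.25 ± 0.09, adjusted p = 0.0167). At the shared time of 60 min, HU60 against DIA60, 7 members were lower and 3 were higher, where 29.3% of all genes were lower and 29.4% higher. psu1 (-0.71 ± 0.07) and gas4 (-0.54 ± 0.07) had the largest negative differences. gas2 (0.49 ± 0.06), bgs2 (0.33 ± 0.09) and gas5 (0.31 ± 0.09) were higher in HU60 than in DIA60.

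**Figure D4:**
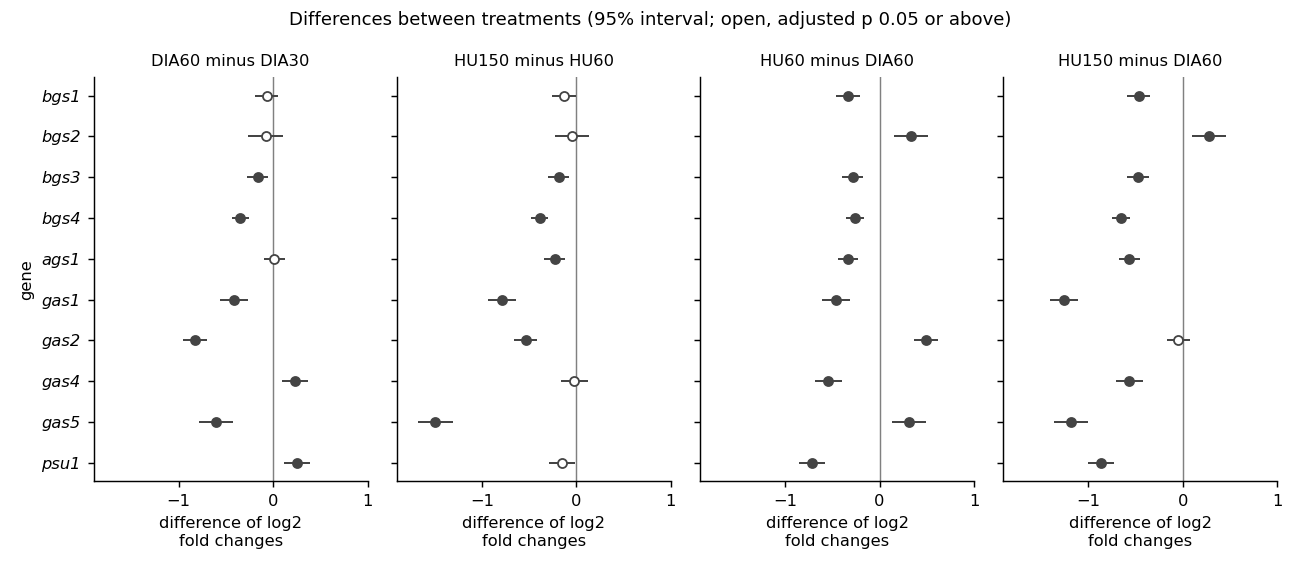
Differences between treatments for each of the 10 genes, as the first log2 fold change minus the second, with 95% intervals. Open circles have an adjusted p of 0.05 or above. In HU150 against HU60 all 10 points lie below 0, while in DIA60 against DIA30 gas4 (0.23), psu1 (0.26) and, with an open circle, ags1 (0.01) lie above it.

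Other wall genes were set beside these members. Of 8 glucan hydrolases, which cut glucan, 4 passed 2-fold in at least 1 comparison, as 12.5% of all genes did. eng1, the endo-beta-glucanase that dissolves the primary septum, was at -4.89 ± 0.08 in HU150 and at -2.00 ± 0.07 in DIA60. agn1, the endo-alpha-glucanase of cell separation, was at -3.30 ± 0.08 in HU150 and -1.26 ± 0.07 in DIA60, and exg1, an exo-beta-glucanase, at -3.31 ± 0.08 in HU150. exg3, a further exo-glucanase, was lowered with DIA (-1.07 ± 0.07 in DIA30, -1.12 ± 0.07 in DIA60) and raised with HU (0.56 ± 0.06 in HU60, 0.36 ± 0.06 in HU150). Over the list of 8, 2 rose and 4 fell in HU150 (median -0.16), where 33.1% of all genes rose and 31.7% fell. In DIA60 1 rose and 6 fell (median -0.72), where 36.4% of all genes rose and 35.3% fell. Of the 4 paralogs of ags1 (mok11 to mok14) 0 passed 2-fold in any comparison. In HU150, 2 of the 4 rose and 0 fell (median 0.10), where 33.1% of all genes rose and 31.7% fell.

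Of 4 other wall proteins measured, ecm33, a wall protein with a lipid anchor, was at -1.20 ± 0.06 in HU150. meu10, a gene of spore wall formation with a mean of only 51.7 normalized counts, was at 2.36 ± 0.21 in DIA60 and -1.32 ± 0.30 in HU150. 3 of these 4 rose in DIA60 (36.4% of all genes) and 3 fell in HU150 (31.7% of all genes), with medians of 0.62 and -0.78. The DIA60 count and median include psu2, which averaged only 17.1 normalized counts.

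**Figure D5:**
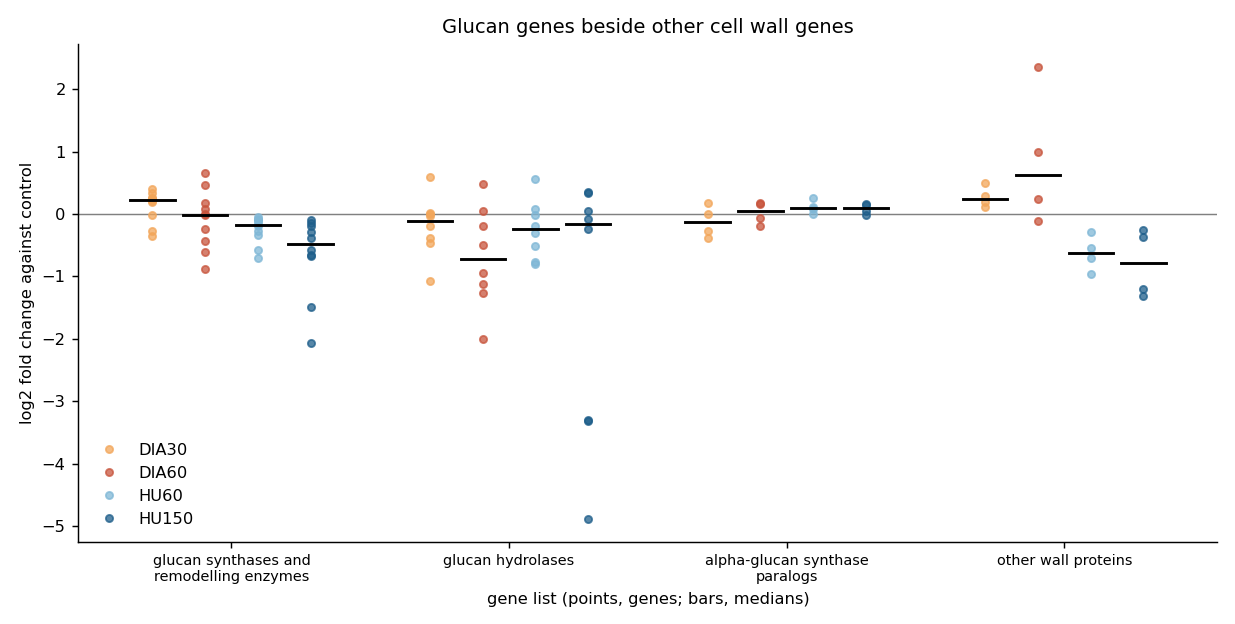
Log2 fold changes against the control of the 10 glucan genes and of 3 other lists of wall genes under the 4 treatments. Points are genes and bars are medians. In HU150 the median is -0.48 for the 10 glucan genes, -0.16 for the glucan hydrolases, 0.10 for the paralogs of ags1 and -0.78 for the other wall proteins.

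The genes whose values over the 4 comparisons came closest to those of gas5 and gas1 were sought among the same 4867 genes by Euclidean distance between log2 fold changes. Closest to gas5 were SPBC31F10.17c (distance 0.22), spo12 (0.23) and rpl1603 (0.25). In HU150 they were at -1.98, -2.02 and -1.89. The nearest of the other members to gas5 was gas1, at a distance of 0.999. Closest to gas1 were aah1 (0.35), mac1 (0.35) and ecm33 (0.36), which were at -1.26, -1.26 and -1.20 in HU150, and the nearest member was bgs4 (0.96). Since the comparisons share their control libraries, a noisy control value moves all 4 together, and the distances are a description only.

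In the RefSeq annotation, of another version of the assembly than the files', gas1 and bgs3 are neighbouring protein-coding genes transcribed away from each other. In HU150 gas1 was at -1.49 and bgs3 at -0.39. 9 of the 10 members overlap an annotated gene on the opposite strand, 3 of them a protein-coding one. The share of all genes with such an overlap was not computed, so this is not shown to be a trait of the members. The library kit marked strand, but the strand setting of the counting is not given in the sources used here. gas2 overlaps tri1 by 1355 bases, and gas5 overlaps SPAC11E3.12 by 1945 bases. The mean normalized count of tri1 was 149, beside 18492 for gas2, and that of SPAC11E3.12 was 315, beside 3283 for gas5. In HU150, where gas2 and gas5 fell, tri1 was at -0.07 (adjusted p = 0.633) and SPAC11E3.12 at -0.07 (adjusted p = 0.497). In DIA60 both partners fell as gas2 and gas5 did, tri1 at -1.10 and SPAC11E3.12 at -0.26. In DIA30 tri1 fell (-0.71) where gas2 rose (0.22), and SPAC11E3.12 fell (-0.50) as gas5 did (-0.28). In HU60, where gas2 and gas5 fell, neither partner passed the test (adjusted p = 0.771 for tri1 and 0.363 for SPAC11E3.12). bgs1 overlaps SPBC19G7.04 by 61 bases, and that gene was at -1.60 in HU150, beside -0.28 for bgs1. In HU60 both fell, SPBC19G7.04 at -0.35 and bgs1 at -0.15. In DIA60 SPBC19G7.04 fell (-0.63) where bgs1 rose (0.18). In DIA30 SPBC19G7.04 did not pass the test (adjusted p = 0.744), where bgs1 rose (0.25).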

How the data were processed

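The authors mapped strand-specific mRNA reads with STAR 2.7.10a and SAMtools 1.3 to ASM294v2, obtained gene counts from HTSeq 2.0.1 and fitted DESeq2, with 1 comparison per treatment. The signal column that the authors deposited is the mean normalized count over all 15 libraries. The deposited log2 fold changes and standard errors, the score (the Wald statistic) and the p-values, with and without Benjamini-Hochberg adjustment, are the authors' own and were taken as they stand. The clean read counts per library were deposited in a separate table, where 3 names per condition are listed. The sample labels name 1 sample per condition. In the tables, log2 fold change over standard error equalled the Wald statistic, the adjustment was recomputed to within 1.28e-15, and the means were equal. DIA60 and HU60 also list 11 genes without a p, which were left out.

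The control level of a gene was taken as 5 times its mean over the sum of 1 and its 4 linear fold changes, for equal numbers of libraries. Coding lengths came from RefSeq ASM294v3 by locus tag (5101 of 5134 genes). No sequence is shown, since a genome of the files' build was not used here. Python 3.11.15, pandas 2.3.3, numpy 2.4.6, scipy 1.17.1 and matplotlib 3.10.9 were used.

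The members and lists were chosen with earlier results of these data known. Named genes are the 10 members, of each list at most 4 genes past 2-fold in at least 1 comparison, and the 3 genes closest in pattern to the 2 members with the largest change. Of the 5 other wall proteins listed, 4 were matched by name. Some results on other wall-related genes are not reported here. Alternatives were other thresholds of fold and adjusted p, centring on the median gene, adjustment over genes with a mean of at least 50, an SE of contrasts from rebuilt variances, and a control of 2 libraries.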

Additional observations from a re-analysis of the deposited data

Results flagged for a closer look

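For the genes below, the log2 fold change against the shared control differed between the 2 times of a drug, by the test of the difference. The control was not matched in time. With DIA, gas1 and gas2 rose at 30 min and fell at 60 min, and the differences (DIA60 minus DIA30) were -0.42 for gas1 and -0.83 for gas2. gas5, lowered at both times, had -0.61, bgs4 had -0.35 and bgs3 had -0.16. gas4 and psu1, raised at both times, had 0.23 and 0.26.

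With HU, no value changed sign, and the later time was lower in each case. The differences (HU150 minus HU60) were -1.49 for gas5, -0.79 for gas1, -0.54 for gas2, -0.39 for bgs4, -0.23 for ags1 and -0.19 for bgs3.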

How the results depend on the processing

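With a 1.5-fold threshold in place of 2-fold, 3 members were counted in DIA60 (1 higher, 2 lower, main count 0), 1 lower in HU60 (main 0) and 4 lower in HU150 (main 2), and with a 4-fold threshold 1 in HU150. The shares of all genes past 1.5-fold and 4-fold were not computed, so these counts have no background beside them. No value changed direction under any alternative run. Of the 40 log2 fold changes of members, 3 lost their call at an adjusted p of 0.01 (bgs3 in DIA60, gas2 in HU60, bgs2 in HU150), 1 when centred on the median gene (bgs3 in DIA60), and none when adjusted over genes with a mean of at least 50. Of the 50 differences between treatments, 2 lost their call at 0.01 (bgs3 in DIA60 against DIA30, bgs2 in HU60 against DIA30). With an SE from rebuilt variances, bgs1 and psu1 also passed in HU150 against HU60 (adjusted p = 0.0109 and 0.00867). A control counted with 2 libraries moved rebuilt levels by -0.92% to 3.92%, within the spread for all 50. No paired analysis was possible because the files hold no values per library, and for the same reason no library could be left out. Member means lay between 1102 and 27983 normalized counts, and a library that stands apart could not be seen.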
